A study of Homo sapiens with 4 samples.

Results

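20q13.33 is the last band of the long arm of human chromosome 20, and its accessible sites were described here in BCPAP cells with and without 5-azacytidine. The stretch was taken as chromosome 20 from 60 Mb to its end on the hg19 build, a length of 3.03 Mb, and its members were all merged ATAC-seq regions with their centre in it. There were 1797 such regions among 373425 on chromosomes 1 to 22 and X. Chromosome 20 from 30 to 60 Mb, with 10489 regions, served as the comparison stretch. A region is the union of peaks from the 4 lists that share at least 1 bp, and a list without a peak there counts as absent. The stretch had been selected on the presence of peaks in treated and untreated lists, as one where gained sites outnumbered lost ones. Presence and coverage in that contrast are therefore given as descriptions, without a test.

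BCPAP is an established human thyroid cancer line. The study has 2 libraries of BCPAP cells treated with 5-azacytidine, a nucleoside analogue that depletes DNA methyltransferases and so reduces methylation of CpG sites, and 2 libraries of untreated BCPAP cells. The sample labels give no dose or duration, while the names of the deposited lists carry the tags 0uM for untreated and 2uM for treated cells. The labels do not say that replicates were separate cultures, so the spread between replicates may be technical. ATAC-seq uses a transposase that cuts exposed DNA, so that open chromatin appears as peaks of read coverage.

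Ends of chromosome arms with many genes carry many promoters and CpG islands, where DNA is usually unmethylated, set among CpG-rich DNA that is usually methylated. In the RefSeq gene table for GRCh38, 35 of 35 genes looked up for this band were found on chromosome 20, in an order running from CDH4, a cadherin of cell adhesion, toward MYT1, a zinc finger transcription factor of the nervous system. Between them lie LAMA5, which encodes a laminin chain of basement membranes, CHRNA4, a subunit of neuronal acetylcholine receptors, PTK6, a tyrosine kinase of epithelia, RTEL1, a helicase that guards telomere length, and SOX18, a transcription factor of vessel development. The table holds 65 protein-coding genes from CDH4 to the end of the chromosome. Its coordinates are on another build than the peaks, so no region is assigned to a gene here, and no sequence is shown.

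Accessible sites were crowded in 20q13.33. Regions numbered 593 per Mb there, against 349.6 per Mb in the comparison stretch, and they covered 51.3% of the bases, against 23.5%. The median gap between neighbouring regions was 346 bp in 20q13.33 and 797 bp in the comparison stretch. Regions were also wider, with a median of 602 bp and a mean of 3.38 summits, against 500 bp and 2.37 summits. All 4 libraries showed the crowding. Peaks per Mb were 2.25 and 2.45 times as dense in 20q13.33 as in the comparison stretch in 5-azacytidine replicates 1 and 2, and 2.42 and 2.63 times as dense in untreated replicates 1 and 2. The excess was of similar size with and without treatment, and the highest value belonged to an untreated library. The first region of the stretch began at 60001244, and the last ended at 62960696, beyond which no library listed a peak.

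Whole lists held 259572 and 245142 peaks in 5-azacytidine replicates 1 and 2 and 221110 and 223345 peaks in untreated replicates 1 and 2. In 20q13.33 the lists held 1898 and 1514 peaks after 5-azacytidine and 1144 and 1522 peaks without treatment. The groups overlapped, since untreated replicate 2 lay just above 5-azacytidine replicate 2. The means were 1706 ± 272 peaks after 5-azacytidine and 1333 ± 267 peaks in untreated cells (SD, n = 2 each), a log2 ratio of 0.36 that is of the same order as the spread between replicates. Untreated replicate 1 was the lowest library and 5-azacytidine replicate 1 the highest. The log2 ratio was 0.16 without the one and 0.18 without the other, against 0.51 without 5-azacytidine replicate 2 and 0.58 without untreated replicate 2.

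The larger number of peaks after 5-azacytidine was not greater in 20q13.33 than on the rest of the arm. For every 100 peaks in the comparison stretch, 20q13.33 held 22.7 and 24.7 peaks in 5-azacytidine replicates 1 and 2 and 24.5 and 26.5 peaks in untreated replicates 1 and 2. The group means were 23.7 ± 1.41 after 5-azacytidine and 25.5 ± 1.47 in untreated cells (SD, n = 2 each), a log2 ratio of −0.10. Set against whole lists the ratio turned positive, at 0.17, but the groups overlapped. 20q13.33 held 0.731% and 0.618% of the list after 5-azacytidine and 0.517% and 0.682% in untreated cells. The comparison stretch itself held more peaks in treated cells, with 8351 and 6123 after 5-azacytidine and 4675 and 5733 in untreated cells. Its log2 ratio of group means was 0.48. Counting only summits covered by at least 10 reads, 20q13.33 held 29.2 and 26.0 after 5-azacytidine and 20.3 and 24.7 in untreated cells for every 100 in the comparison stretch. These groups did not overlap, and their log2 ratio was 0.29.

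Most peaks of 20q13.33 were low in every library. The median summit coverage over all its peaks was 7 and 8 reads in 5-azacytidine replicates 1 and 2 and 8 in each untreated library. Over whole lists it was 7 and 9 after 5-azacytidine and 12 and 10 in untreated cells. Relative to its whole list, the median was thus lower here in both untreated libraries and in 5-azacytidine replicate 2, and equal in 5-azacytidine replicate 1. Peaks of at least 50 reads numbered 21 and 62 after 5-azacytidine and 109 and 90 in untreated cells, so the tallest peaks of the stretch were more numerous in both untreated libraries. Peaks of at least 10 reads numbered 568 and 628 after 5-azacytidine and 471 and 544 in untreated cells, the opposite order. As shares of the stretch's peaks these were 29.9% and 41.5% after 5-azacytidine and 41.2% and 35.7% in untreated cells, which overlap. Over whole lists this share was higher in every library, and both untreated lists lay above both treated ones. Whether the counts of at least 50 reads differ from those of whole lists was not tested.

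**Figure D1:**
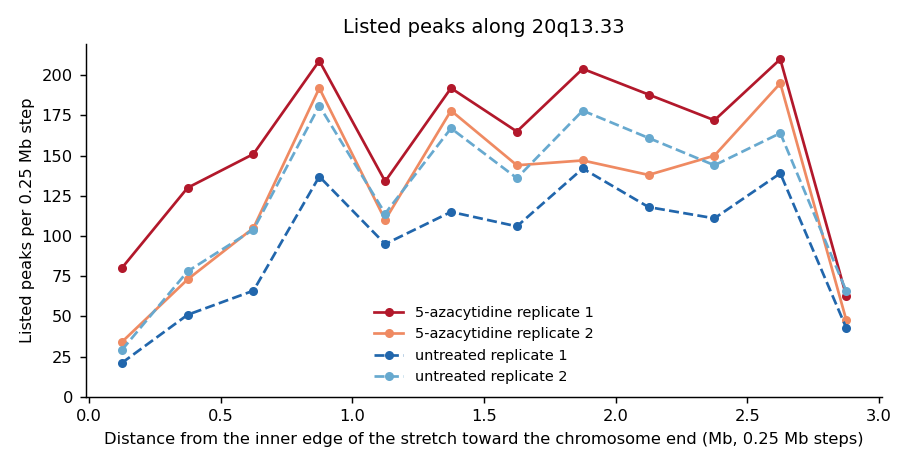
Listed peaks (y axis) in consecutive 0.25 Mb steps from the inner edge of 20q13.33 toward the chromosome end (x axis, Mb), with 1 line per library. 5-Azacytidine replicate 1 is highest in 11 of 12 steps and untreated replicate 1 lowest in 12 of 12, while 5-azacytidine replicate 2 and untreated replicate 2 cross.

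Along the stretch the order of the libraries hardly changed. 5-Azacytidine replicate 1 had the most peaks in 11 of the 12 steps of 0.25 Mb that held regions, and untreated replicate 1 had the fewest in 12 of 12. Untreated replicate 2 lay above 5-azacytidine replicate 2 in 5 steps, and both treated lists lay above both untreated lists in 7. The step from 60 to 60.25 Mb was sparse, with 80 and 34 peaks after 5-azacytidine and 21 and 29 in untreated cells, and it had the largest log2 ratio of group means, 1.19. That ratio came mainly from 5-azacytidine replicate 1. The step from 60.75 to 61 Mb held 209 and 192 peaks after 5-azacytidine and 137 and 181 in untreated cells. The step from 62.5 to 62.75 Mb held 210 and 195 peaks after 5-azacytidine and 139 and 164 in untreated cells. The last step with regions, from 62.75 to 63 Mb, fell off to 63 and 48 peaks after 5-azacytidine and 43 and 66 in untreated cells, with a log2 ratio of 0.03. The plot of peaks by step shows all 4 profiles rising from step 1 to step 4 and falling in step 5. Regions listed in all libraries were most common from step 4 to step 11. Those made up 7.0%, 11.6% and 17.0% of regions in the first 3 steps, 31.4% to 45.8% in the next 8 and 16.3% in the last.

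Gained regions, listed in both 5-azacytidine libraries and in neither untreated one, outnumbered lost regions, which have the reverse pattern. There were 114 gained and 15 lost regions in 20q13.33, which is 6.34% and 0.835% of its regions. Over all 373425 regions the gained share was 4.21% and the lost share 3.35%. The comparison stretch had 611 gained and 176 lost regions, or 5.83% and 1.68%. The gained share of 20q13.33 was thus close to that of the rest of the arm, and the lost share was about as far below the arm as the arm was below all chromosomes. Since presence chose the stretch, these counts support nothing by themselves.

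Patterns that do not separate the groups were uneven as well. Regions listed in 5-azacytidine replicate 1 and untreated replicate 2 alone numbered 105, or 5.84% of the stretch, against 4.19% in the comparison stretch and 1.97% over all chromosomes. Regions listed in 5-azacytidine replicate 2 and untreated replicate 1 alone numbered 19, or 1.06%, against 1.60% and 2.42%. The ratio of these crossed classes was 5.53 in 20q13.33, 2.62 in the comparison stretch and 0.815 over all chromosomes, while that of gained to lost regions was 7.60, 3.47 and 1.25. The same-numbered pairs were level, with 43 regions in replicates 1 alone and 42 in replicates 2 alone. Regions listed in a single library numbered 334 and 131 for 5-azacytidine replicates 1 and 2 and 46 and 129 for untreated replicates 1 and 2. For 5-azacytidine replicate 1 and untreated replicate 2 the shares, 18.6% and 7.18%, were close to the 19.3% and 7.95% over all chromosomes. For 5-azacytidine replicate 2 and untreated replicate 1 they were lower, at 7.29% and 2.56%, against 11.0% and 7.69%. Regions missing from untreated replicate 1 alone numbered 116, or 6.46% of the stretch, against 1.94% over all chromosomes. Those missing from 5-azacytidine replicate 2 alone numbered 63, or 3.51%, against 1.91%, and those missing from 5-azacytidine replicate 1 alone numbered 41, or 2.28%, against 4.31%. The 42 regions missing from untreated replicate 2 alone made up 2.34%, against 2.28%. What part the low number of peaks in untreated replicate 1 had in the balance of gained and lost regions was not tested. Without that library, 156 regions were gained and 144 lost, and without untreated replicate 2, 230 were gained and 61 lost. In both cases a lost region needs a peak in 1 untreated list only and a gained region in both treated ones. Without 5-azacytidine replicate 1, 245 were gained and 78 lost, and without 5-azacytidine replicate 2, 448 and 56.

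**Figure D2:**
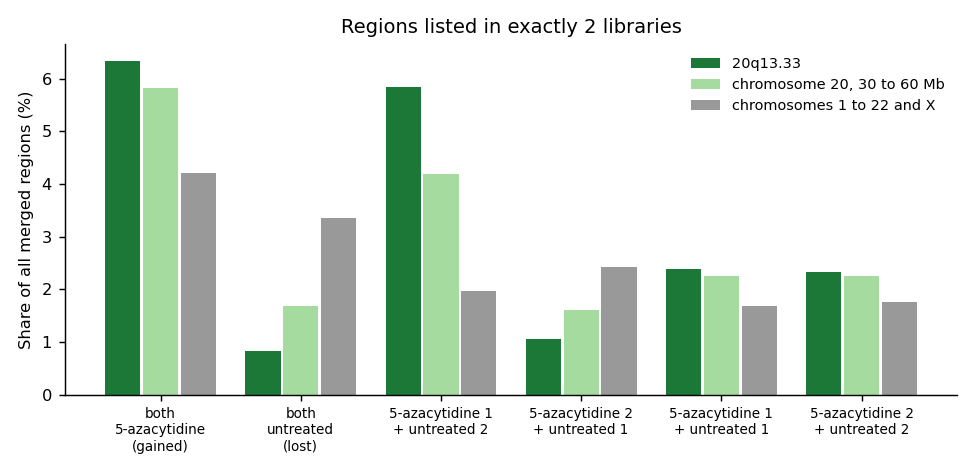
Share of merged regions (y axis, %) that were listed in exactly 2 of the 4 libraries, by pair of libraries (x axis), in 20q13.33, chromosome 20 from 30 to 60 Mb and chromosomes 1 to 22 and X. In 20q13.33 gained regions make up 6.34% and lost regions 0.835%, and the crossed pair of 5-azacytidine replicate 1 and untreated replicate 2 reaches 5.84%.

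Gained regions were spread over the whole stretch. They outnumbered lost regions in 12 of 12 steps, and the crossed class of 5-azacytidine replicate 1 with untreated replicate 2 outnumbered its counterpart in 11 of 12. The most gained regions, 16, lay between 62.5 and 62.75 Mb, beside 1 lost region. In that step alone the crossed classes went the other way, with 2 regions for 5-azacytidine replicate 1 with untreated replicate 2 and 3 for 5-azacytidine replicate 2 with untreated replicate 1. The step from 60.75 to 61 Mb followed with 14 gained and 0 lost regions, and the crossed classes held 8 and 0. The step before it and the one from 61.5 Mb held 13 gained regions each, with 3 and 2 lost. Between 61.25 and 61.5 Mb the larger crossed class, with 17 regions, exceeded the 11 gained ones. The fewest gained regions, 3, lay in the last step with regions. The first 0.5 Mb inside the inner edge held 15 gained and 2 lost regions among 264, and the 0.5 Mb before 60 Mb, just outside it, held 17 and 0 among 184. The gained share was thus 5.68% just inside the edge and 9.24% just outside it.

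**Figure D3:**
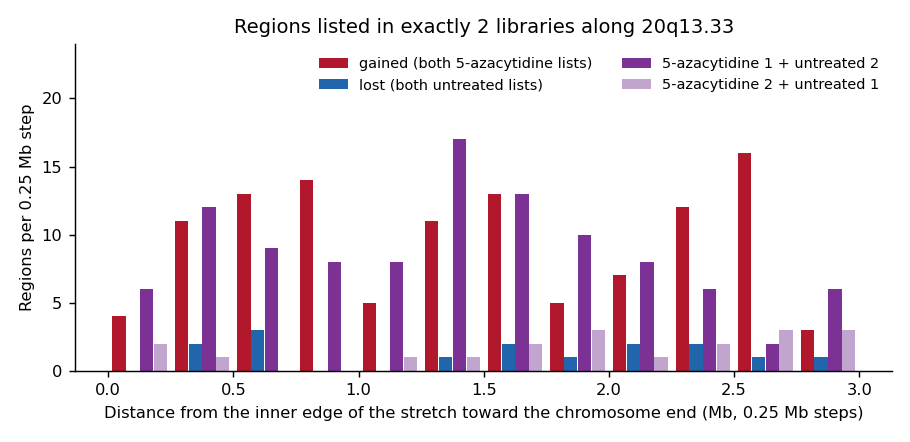
Number of regions (y axis) in consecutive 0.25 Mb steps of 20q13.33 (x axis, Mb from the inner edge) that were gained, lost or listed in a crossed pair of libraries. Gained bars exceed lost bars in 12 of 12 steps, and the bars of 5-azacytidine replicate 1 with untreated replicate 2 exceed the gained bars in 7 of 12.

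Gained and lost regions were low peaks, and most lay within 5 kb of a region listed in all 4 libraries. Median coverage of gained regions was 6 and 6.5 reads in 5-azacytidine replicates 1 and 2, and that of lost regions was 6 reads in each untreated library. The lowest coverage in any list was 4 reads. Coverage reached 10 reads in both libraries in 4 of 114 gained and 1 of 15 lost regions. These are 0.223% and 0.0556% of the stretch's regions, against 0.139% and 0.260% of all regions. In 39 gained and 6 lost regions, the numbering of a list counted as absent had a gap at the site, so a called peak may be missing from that list. The nearest region listed in all 4 libraries lay within 5 kb of 80 of 114 gained and 15 of 15 lost regions. In the comparison stretch this held for 388 of 611 gained and 113 of 176 lost regions. Of the crossed classes of 20q13.33, 82 of 105 regions of 5-azacytidine replicate 1 with untreated replicate 2 lay that close. For 5-azacytidine replicate 2 with untreated replicate 1 it was 11 of 19. Closeness was thus not particular to gained and lost regions.

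The strongest gained region ran from 60776570 to 60777689 on chromosome 20, with 4 summits and a highest coverage of 13 and 16 reads in 5-azacytidine replicates 1 and 2. This corresponds to an enrichment of 7.37-fold and 9.07-fold in the authors' lists, and no number was missing from either untreated list. The region from 61592097 to 61592608 had 12 and 19 reads, but a peak number was missing from the list of untreated replicate 2 at that place. The region from 62505552 to 62506105 had 11 and 12 reads, and the one from 62543811 to 62544726 had 14 and 10. Both lie in the step with the most gained regions, and neither untreated list lacked a number there. The next 6 by the lower of both coverages reached 8 or 9 reads in 5-azacytidine replicate 1 and 10 to 16 in replicate 2. The tallest peaks of the stretch reached 185 and 275 reads in 5-azacytidine replicates 1 and 2, so these gained sites are small beside them.

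The strongest lost regions had fewer reads than the strongest gained ones, but they are the top of 15 regions against 114. As classes the 2 were of similar strength. Both coverages were at most 6 reads in 37 of 114 gained and 5 of 15 lost regions, and at least 10 reads in 3.51% and 6.67%. Only the region from 61352816 to 61353318 reached 10 reads in both untreated libraries, with 12 and 10, and a peak number was missing from the list of 5-azacytidine replicate 1 there. The region from 61785632 to 61786165 had 7 and 10 reads and that from 62153951 to 62154723 had 8 and 7. The other 12 lost regions had at most 7 reads in the lower library.

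Regions listed in all 4 libraries were more frequent in 20q13.33 than elsewhere, with 557 of 1797, or 31.0%, against 20.9% in the comparison stretch and 28.2% over all chromosomes. Where peaks are crowded, merging at 1 bp can join peaks of all lists into 1 region without a common site. The share was not recomputed with at least 250 bp shared. Regions listed in all 4 libraries were also wide. Their median width was 1193 bp, against 826 bp in the comparison stretch, and 15.8% were at least 2000 bp wide, against 5.99%. Median summit coverage in them was 11 and 12 reads in 5-azacytidine replicates 1 and 2 and 10 and 11 reads in untreated replicates 1 and 2. In the comparison stretch it was 12 and 17 reads after 5-azacytidine and 21 and 17 in untreated cells. All 4 libraries were therefore lower in 20q13.33 than on the rest of the arm, at 0.917 and 0.706 times its median in 5-azacytidine replicates 1 and 2 and at 0.476 and 0.647 times in untreated replicates 1 and 2. Divided by the median of all shared regions of the same library, the coverage of 20q13.33 was 1.0 and 0.75 in 5-azacytidine replicates 1 and 2 and 0.435 and 0.611 in untreated replicates 1 and 2. The groups did not overlap on that scale.

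Per region, the log2 ratio of mean 5-azacytidine to mean untreated coverage had a median of −0.11 in 20q13.33, with quartiles of −0.50 and 0.26. In the comparison stretch the median was −0.45, and over all chromosomes −0.55. The ratio was thus higher in 20q13.33 by 0.34 than in the comparison stretch. This difference kept its sign without each library in turn, between 0.15 and 0.48, with the lowest value when untreated replicate 1 was left out. It was of the same order as the spread between replicates of the library medians relative to the comparison stretch, which had a pooled SD of 0.29 on the log2 scale. In 89 of the 557 shared regions both 5-azacytidine coverages lay above both untreated ones, which is 16.0%, against 4.39% of all 105414 shared regions and 8.04% in the comparison stretch. In 143 both lay below, which is 25.7%, against 47.6% and 44.1%. After scaling each library by its median, 275 lay above, or 49.4%, against 27.2% over all chromosomes and 34.9% in the comparison stretch. The medians were 11 and 16 reads after 5-azacytidine and 23 and 18 in untreated cells, so equal reads give a positive ratio on that scale. On that scale 54 lay below, or 9.69%, against 22.2% and 21.9%.

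Part of this pattern went with the strength of the sites, with a limit set by the lists. A shared region has at least 4 reads in every list, so a low mean coverage by itself holds the ratio near 0. Scaled ratios have the same limit around a positive value. The classes were also formed from the same coverages as the ratios. Over all chromosomes the median log2 ratio was 0.00 for shared regions with a mean coverage of 4 to below 8 reads and fell to −0.82 for those of 50 reads or more. 20q13.33 is rich in weak shared regions, with 25.1% in the lowest of these classes, against 16.7% in the comparison stretch and 10.04% over all chromosomes. Within the classes the difference was largest at medium strength. For 8 to below 12 reads the median log2 ratio was 0.07 in 20q13.33, against −0.08 in the comparison stretch and −0.26 over all chromosomes. For 12 to below 20 reads it was 0.00, against −0.34 and −0.54, and for 20 to below 50 reads −0.52, against −0.69 and −0.72. In the class of 50 reads or more, the 62 regions of 20q13.33 had a median of −0.70, against −0.86 and −0.82. The lowest class, where that limit leaves little room for a difference, showed no excess, at 0.00 against 0.10 and 0.00. Scaled median ratios fell with strength too, over all chromosomes from 0.57 in the lowest class to −0.22 in the highest. From lowest to highest class they were 0.65, 0.68, 0.61, 0.09 and −0.12 in 20q13.33. The comparison stretch had 0.71, 0.53, 0.27, −0.08 and −0.26. In the lowest class 68 of 140 regions had both scaled treated coverages above both untreated ones, against 234 of 365 in the comparison stretch. In the tallest class, 40 of the 62 regions had both treated coverages below both untreated ones, which is 64.5%, against 83.9% in the comparison stretch and 78.1% over all chromosomes. None had both above, as was the case for 0.264% and 0.096% there.

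**Figure D4:**
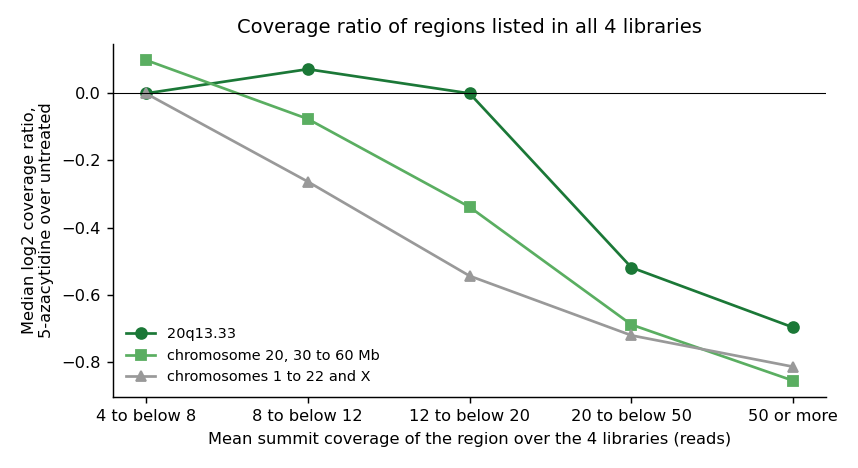
Median log2 ratio of mean 5-azacytidine to mean untreated summit coverage (y axis) of regions listed in all 4 libraries, by their mean coverage over the libraries (x axis, reads). The line of 20q13.33 stays at 0.00 to 0.07 up to 20 reads and then falls to −0.70, above the comparison stretch in every class except the lowest.

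Single sites were ranked by the ratio of scaled coverages among shared regions whose scaled values do not overlap between the groups. Coverage is that of the highest peak of each list, which in a region of several summits need not lie at the same place. The highest ratio belonged to the region from 61285972 to 61289654, with 14 summits over 3683 bp. Its coverage was 33 and 36 reads in 5-azacytidine replicates 1 and 2 and 7 and 10 reads in untreated replicates 1 and 2, an unscaled log2 ratio of 2.02. It was followed by the region from 60736310 to 60736818, with 18 and 26 reads after 5-azacytidine and 7 and 6 in untreated cells. The region from 60215112 to 60216258 had 16 and 19 reads after 5-azacytidine and 4 and 7 in untreated cells. In these 3 regions the unscaled coverage was more than 2 times as high in each treated library as in each untreated one.

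The region from 62316685 to 62318599 was the tallest of these sites, with 48 and 49 reads after 5-azacytidine and 17 in each untreated library. The last of the 5, from 61298290 to 61299022, had 14 and 19 reads after 5-azacytidine and 7 and 5 in untreated cells. It lies less than 10 kb from the first one.

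The lowest scaled ratios belonged to tall sites. Such a ratio needs untreated reads well above the lowest listed coverage of 4, so the ranking by itself kept the weakest sites out. The region from 60942894 to 60944452 had 21 and 28 reads after 5-azacytidine and 75 and 62 reads in untreated cells, an unscaled log2 ratio of −1.48. From 60813191 to 60815017 the coverage was 41 and 69 reads after 5-azacytidine and 184 and 115 in untreated cells, and from 60981691 to 60983015 it was 27 and 49 after 5-azacytidine and 114 and 88 in untreated cells. These 3 regions lie within 0.25 Mb, in the step from 60.75 to 61 Mb that also held 14 gained regions. The region from 62886739 to 62887684 had 17 and 36 reads after 5-azacytidine and 71 and 64 in untreated cells, and that from 62127399 to 62128560 had 16 and 12 after 5-azacytidine and 34 and 40 in untreated cells.

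**Figure D5:**
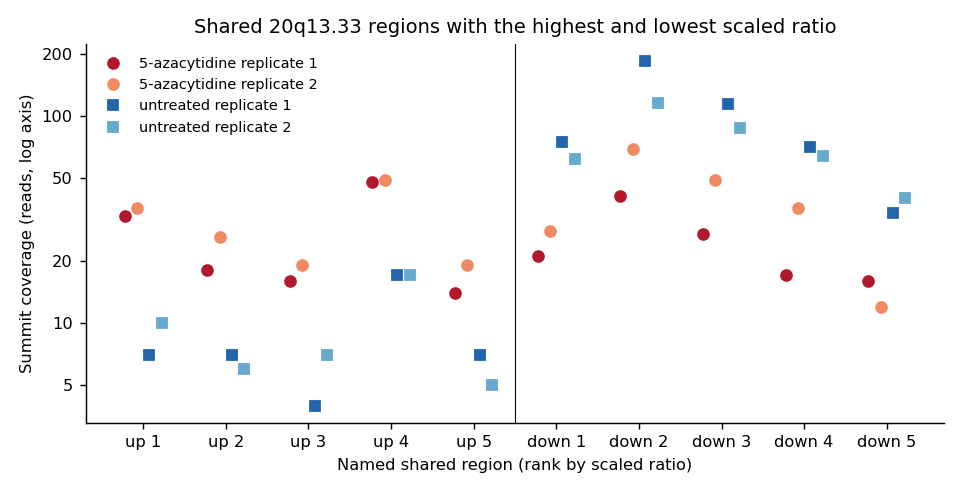
Summit coverage (y axis, reads, log scale) in each library at the 5 shared regions of 20q13.33 with the highest and the 5 with the lowest scaled ratio of 5-azacytidine to untreated coverage (x axis, in rank order), chosen among regions whose groups do not overlap in scaled coverage. The regions that were higher after treatment have 4 to 17 reads in untreated cells, and those that were lower have 34 to 184. Untreated coverage is part of the ratio, so the ranking by itself favours such a contrast.

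The tallest sites of the stretch gave different answers on the 2 scales. The most accessible, from 62313692 to 62314415 had 185 and 275 reads after 5-azacytidine and 266 and 219 reads in untreated cells, so the groups overlapped in reads. Divided by the library medians, it stood at 16.8 and 17.2 after 5-azacytidine and 11.6 and 12.2 in untreated cells, without overlap. It was followed by the region from 62168504 to 62170526, with 100 and 170 reads after 5-azacytidine and 237 and 166 in untreated cells, where the groups overlapped in reads and in scaled coverage. From 61371521 to 61372063 the coverage was 73 and 132 reads after 5-azacytidine and 199 and 155 in untreated cells, and from 62854673 to 62856107 it was 62 and 118 after 5-azacytidine and 161 and 147 in untreated cells. Both had their treated reads below the untreated ones. After scaling this held for the first, while the groups of the second overlapped, at 5.64 and 7.38 after 5-azacytidine and 7.0 and 8.17 in untreated cells. The fifth, from 61518793 to 61519302, had 95 and 120 reads after 5-azacytidine and 140 and 110 in untreated cells, which overlap in reads. Its scaled coverage of 8.64 and 7.5 after 5-azacytidine lay above the 6.09 and 6.11 of untreated cells.

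The sites with most summits were broad, and their groups overlapped in reads but not after scaling, where both treated libraries were higher. The region from 61924390 to 61930988 joined 42 summits over 6599 bp, with a highest coverage of 28 and 43 reads after 5-azacytidine and 35 and 30 in untreated cells. A pair of neighbouring regions joined 28 and 38 summits. The first, from 62319945 to 62324803, had 50 and 123 reads after 5-azacytidine and 67 and 64 in untreated cells. The second, from 62326507 to 62331766, had 81 and 142 reads after 5-azacytidine and 117 and 94 in untreated cells. The scaled log2 ratios of the 3 regions were 0.71, 0.92 and 0.66. With the strongest shared site and the fourth of those that were higher after treatment, the pair of neighbours lies within 20 kb. Over the 88 shared regions of at least 2000 bp, median coverage was 12 reads in each 5-azacytidine library, against 9 and 11 reads in untreated cells, and the median log2 ratio was 0.00 in reads and 0.62 after scaling.

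By step, the median log2 ratio of shared regions lay between −0.26 and 0.07 in the 11 steps before 62.75 Mb. In the last step with regions it was −0.58, over 15 shared regions, with median coverages of 8 and 14 reads after 5-azacytidine and 21 and 17 in untreated cells. Relative to the library medians the ratio was positive in 11 of 12 steps, between 0.35 and 0.64, and −0.05 in the last. The scaled median of all chromosomes was 0.06. With 15 regions the last step is thinly filled, and without it the stretch has no step below 0 on the scaled ratio.

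The last 3.03 Mb before the final listed region of each chromosome were set side by side, a choice made after the data had been seen. By that count the end of chromosome 20 held 1826 regions, more than any of the other 22 ends, and its lost share of 0.821% was the lowest of 23. Its gained share of 6.52% was the 9th highest, below the 11.5% of chromosome 13 and the 10.5% of chromosome 17. Its scaled median log2 ratio of 0.50 was the highest of 23, followed by 0.46 on chromosome 12 and 0.40 on chromosome 7. Since 20q13.33 had been selected in this same contrast, these ranks are descriptions only. Gained regions outnumbered lost ones at 22 of 23 ends, and untreated replicate 1 had the fewest peaks at 21 of 23. Lost regions depended on how peaks were merged. In 20q13.33 they numbered 15 with 1 bp shared and 73 with at least 250 bp shared. The ends were ranked with 1 bp only.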

How the data were processed

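ATAC-seq was run on BCPAP cells, with 2 libraries per group. Trimming with Trimmomatic, Bowtie2, Picard and peak calling with MACS2 on hg19 are named in the submitters' processing notes. Versions, settings and any shift of read ends for the transposase are not given in the sources at hand. Peaks were called per library, per the file headers and peak names. Nearly all deposited intervals are 500 bp wide. The deposited peak score sums to the same total in every list and was not used. The deposited fold enrichment (ratio) at each summit and the −log10 of p and q come from the authors' peak caller. All but a few fold values were whole multiples of 1 step per list (within 0.001 of a step), which gives the summit coverage in reads. The background coverage behind the step was 0.898 and 0.875 after 5-azacytidine and 0.913 and 0.898 in untreated cells. The number of reads is unknown, and coverage is not scaled for depth unless stated.

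Merging, presence classes and coverage ratios were computed with Python 3.11.15, numpy 2.4.6 and pandas 2.3.3. Merging was tested on simulated data, where 1000 of 1000 regions kept their pattern. A region belongs to a stretch or step by its centre, and its coverage in a list is that of its highest peak. Scaled coverage is divided by the library's median over the 105414 regions in all 4 lists. Named regions are the 10 strongest gained and lost ones by the lower coverage, 5 shared ones with the highest and 5 with the lowest scaled ratio among those whose groups do not overlap after scaling, the 5 tallest and the 3 with most summits. The stretch, the classes and the gene list were chosen with earlier results of these data known. 1 further gene of that list was left out of the look-up and is not reported here. No test was run, since an exact two-sided permutation test of 2 against 2 libraries cannot go below a p of 1 in 3. Promoters, gene positions and sequence content were planned but need hg19 annotation and sequence, which were not used here.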

Additional observations from a re-analysis of the deposited data

How the results depend on the processing

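The count of peaks in 20q13.33 kept its log2 ratio of 5-azacytidine to untreated cells between 0.16 and 0.58 under all 10 alternatives. Relative to the comparison stretch, the ratio of −0.12, taken between group means of both counts, where the mean of the library values gives −0.10, moved to −0.034 when lists were shortened to equal length and turned positive at a −log10 q of at least 5 (0.28), at a coverage of at least 10 (0.29) and against chromosomes 1 to 22 and X (0.17). Gained regions numbered 52 at that q, 75 with a merging distance of 150 bp, 175 with at least 250 bp shared, 4 at a coverage of at least 10 and 75 without regions with a missing peak number. Lost regions numbered 30 with equal numbers, 9 with the merging distance, 73 with at least 250 bp shared, 1 at that coverage and 9 without missing numbers. Gained over lost regions had a log2 ratio of 2.93 as reported, which was 1.43 with equal numbers, 1.79 at that q, 1.26 with at least 250 bp shared and 2.00 at that coverage, and it was positive under all 12 alternatives. Leaving out a library changes by construction how many lists a class needs, and gave 156 to 448 gained and 56 to 144 lost regions and log2 ratios of 0.12 to 3.0. The median log2 coverage ratio of shared regions, −0.11 as reported, was −0.36 at that q and −0.38 at a coverage of at least 10, and turned to 0.50 when coverage was divided by the library median. In settings added after the data were seen, it was 0.00, 0.051 and −0.59 for shared regions with a mean coverage below 8, of 8 to below 20 and of 20 or more. Relative to the comparison stretch the median of 0.34 turned to −0.10 below 8 reads, and was positive under the other 15 alternatives. The cause of these shifts was not tested.

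The labels give same-numbered libraries only a common number. Their deviations correlated with r = −0.05 over all shared regions and −0.195 over those of 20q13.33. With 2 libraries per group these values cannot tell whether same-numbered libraries were processed together. A fit with the replicate number as a block gave 0.36 for peaks, −0.10 relative to the comparison stretch, −0.13 for the median coverage ratio and 0.34 for its difference from the comparison stretch, each close to the reported value. These are means of log2 ratios, which crossing the numbers leaves as they are. The lowest listed coverage is 4 reads, so weaker sites could not be seen in any list, and the number of reads behind the lists is unknown.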
